A study of Mus musculus with 2 samples.

Results

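Globin-rich cells of the postischemic mouse kidney, the barcodes that red blood cells and reticulocytes would leave in a single-cell library, were described in 1 control and 1 JPI-289 treated kidney. They were chosen by their globin share, as the barcodes with at least 500 unique molecular identifiers (UMIs, each standing for 1 captured RNA molecule) and at most 50% mitochondrial UMIs in which the 4 adult globin genes Hba-a1, Hba-a2, Hbb-bs and Hbb-bt held at least 20% of the UMIs. This gave 75 of 6078 control barcodes and 125 of 6350 JPI-289 barcodes, 200 of 12428 in all. Both groups were male C57BL/6 mice of 9 weeks with bilateral renal ischemia-reperfusion injury (IRI). The control mouse received saline, and the treated mouse received 100 mg/kg of JPI-289, an inhibitor of poly (ADP-ribose) polymerase, the enzyme family that marks DNA damage. Dosing was intraperitoneal and preceded the return of blood flow, and the libraries were made from kidneys collected 24 h after the operation. No kidney without ischemia was analysed here, so each group carries the injury.

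With 1 mouse and 1 library per group, no test between the groups was possible and no p-value is given. Intervals are exact 95% binomial intervals that cover the counting alone, and differences from mouse to mouse lie outside them. The control library held 38328760 UMIs and the JPI-289 library 35548396, of which globin-rich cells held 142272 and 219045. The cells came from a kidney cell suspension, no sort is stated in the sources used here, and red cells of vessels and of the tissue cannot be told apart. The 2 libraries shared no barcode among the globin-rich cells and 50 barcodes among all 12428. In the other cells the proximal tubule list held 194 UMIs per 10000 non-globin UMIs for the control and 122 for JPI-289, the main epithelium of the labelled tissue.

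A reticulocyte is a red cell that has lost its nucleus and still holds RNA. It carries the messages that an erythroblast made before, above all those of the alpha and beta chains of haemoglobin, finishes haem synthesis in its last mitochondria, and removes mitochondria, ribosomes and unneeded proteins by autophagy and the ubiquitin system. A mature red cell has almost no RNA, so a globin-rich barcode is mostly a view of young red cells. Broken red cells also release globin RNA into the suspension, from where it enters other droplets.

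The 4 globin genes that choose the cells are 2 pairs of near copies, and the sequences are shown because they limit how far the members of a pair can be told apart. Hbb-bs and Hbb-bt encode the adult beta chains and lie on the minus strand of chromosome 7 (GRCm38, GENCODE vM21), at chr7:103826534-103828096 and chr7:103812524-103813996. Hba-a1 and Hba-a2 encode the alpha chain and lie on the plus strand at chr11:32283511-32284465 and chr11:32296489-32297298. The kit reads molecules from their 5′ end. The first 90 coding bases are the same within each pair, with the start codon in capitals:
Hbb-bs at chr7:103827786-103827875 and Hbb-bt at chr7:103813780-103813869: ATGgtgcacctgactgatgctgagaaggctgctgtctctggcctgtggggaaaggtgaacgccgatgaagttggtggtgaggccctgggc
Hba-a1 at chr11:32283707-32283796 and Hba-a2 at chr11:32296524-32296613: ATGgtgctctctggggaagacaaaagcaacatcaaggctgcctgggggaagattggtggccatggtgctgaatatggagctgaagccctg
Over the whole coding sequence the beta pair differed at 1 of 441 bases, C417T from Hbb-bs to Hbb-bt, and the alpha pair at 1 of 426, C381T from Hba-a1 to Hba-a2, counted from the A of the start codon. That base is in capitals in the windows around it, each written on the coding strand:
Hbb-bs at chr7:103826668-103826722: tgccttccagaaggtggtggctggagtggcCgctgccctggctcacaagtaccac
Hbb-bt at chr7:103812659-103812713: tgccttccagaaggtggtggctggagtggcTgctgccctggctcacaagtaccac
Hba-a1 at chr11:32284313-32284373: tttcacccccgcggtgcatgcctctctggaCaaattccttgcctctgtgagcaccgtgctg
Hba-a2 at chr11:32297130-32297190: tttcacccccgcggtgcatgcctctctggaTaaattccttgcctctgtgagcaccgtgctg
Before the start codon, 9 of the 53 bases compared differed in the beta pair and 0 of 35 in the alpha pair. A 5′ read can therefore carry a difference in the beta pair before the start codon, while alpha reads there have none, and the counts of Hba-a1 and Hba-a2 are uncertain as a split of their sum. Reads that fit 2 genes equally are left out by this kind of counting, so the sums may be low as well.

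The promoters are shown for the beta pair, 1 alpha gene and Alas2, the marker of these cells that the choice did not use. Each is the 120 bases before the RefSeq start on GRCm38.p6, in the direction of the gene, with matches in capitals to CACCC, to the CCAAT box, to AGATAA as a GATA motif and to ATATAA as a TATA motif, on either strand, where a match on the other strand reads as its reverse complement:
Hbb-bs at chr7:103827929-103828048, minus strand: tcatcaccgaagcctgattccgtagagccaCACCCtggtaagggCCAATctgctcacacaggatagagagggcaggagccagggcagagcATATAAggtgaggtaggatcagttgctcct
Hbb-bt at chr7:103813924-103814043, minus strand: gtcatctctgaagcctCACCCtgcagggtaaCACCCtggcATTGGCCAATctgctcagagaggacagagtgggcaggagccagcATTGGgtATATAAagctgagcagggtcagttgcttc
Hba-a2 at chr11:32296372-32296491, plus strand: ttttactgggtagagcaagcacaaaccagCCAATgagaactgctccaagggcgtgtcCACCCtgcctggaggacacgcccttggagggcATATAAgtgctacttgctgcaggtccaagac
Alas2 at chrX:150547297-150547416, plus strand: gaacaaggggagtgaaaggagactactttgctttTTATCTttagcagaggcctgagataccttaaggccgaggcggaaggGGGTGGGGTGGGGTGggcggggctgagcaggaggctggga
Each of the 3 globin windows held CACCC, the CCAAT box and also ATATAA and none held the GATA motif, while the Alas2 window held CACCC 3 times and the GATA motif once, both on the other strand. Of 32851 RefSeq promoter windows of this length, 31.7% held CACCC, 21.3% the CCAAT box, 4.36% the GATA motif and 4.47% the TATA motif. These matches describe the letters and no binding was measured.

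Globin UMIs made up 79.6% of all UMIs of the control cells and 78.8% of those of the JPI-289 cells. Per cell the share ran from 28.5% over a median of 81.0% to 92.2% for the control, and from 24.9% over 82.9% to 93.2% for JPI-289. These values chose the cells. The 3 control cells nearest above the threshold had 28.5%, 32.3% and 38.8%, and the 3 barcodes nearest below it 13.5%, 13.4% and 12.7%. In the JPI-289 library the nearest cells above had 24.9%, 27.8% and 29.8%, and those below 16.8%, 16.7% and 9.18%. Of the barcodes within the UMI and mitochondrial limits but below the globin threshold, 5 control and 8 JPI-289 barcodes had at least 5% globin. In the other barcodes within the same UMI and mitochondrial limits, globins held 0.0246% and 0.0353% of UMIs.

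Globin-rich cells had a median of 1543 UMIs in control kidney and 1547 after JPI-289, with ranges of 518 to 5720 and 502 to 5172. They spread these over few genes, with a median of 184 and 161 detected genes per cell against 576 and 742 in the other cells, whose median depth was 1018 and 1433 UMIs. Mitochondrial UMIs had a median of 2.31% and 2.13% of all UMIs, a share that the choice of cells by globin keeps low. Of the non-globin UMIs of cells above 80% globin they made up 12.4% and 12.3%. Cells with more UMIs had a higher globin share, with a Spearman correlation of 0.660 over the 75 control cells and 0.648 over the 125 JPI-289 cells. These correlations describe cells of 1 library, and both measures share the globin count.

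**Figure D1:**
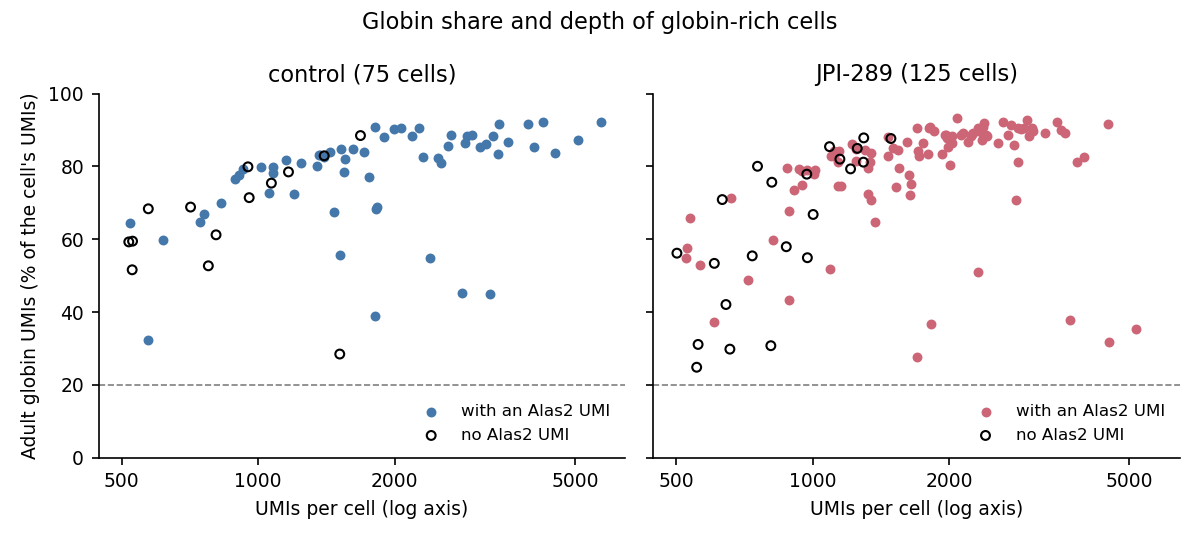
Globin share of each globin-rich cell (percent of its UMIs) against its UMIs (log axis), control left and JPI-289 right; open circles are cells without an Alas2 UMI and the dashed line is the 20% threshold. Shares run up to 92.2% and 93.2%, and the cells without Alas2 have medians of 878 and 844 UMIs.

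Beta chains outnumbered alpha chains among the globin UMIs of both libraries. Hbb-bs held 79.3% of globin UMIs in control cells and 80.3% in treated cells, with 89885 and 138589 UMIs. Hbb-bt followed with 13.4% and 11.6%, on 15147 and 19995 UMIs. Hba-a1 held 4.29% and 4.69% and Hba-a2 3.01% and 3.42%, so that alpha chains together made up 7.30% and 8.10%. UMI counts of a 5′ tag are taken per molecule and were not divided by length. Alpha and beta chains are used in equal numbers in haemoglobin, and the low alpha share stands beside a pair whose 5′ reads cannot be assigned by their first bases. The part of this assignment in the low alpha share was not tested.

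Hbb-bt varied between cells far beyond counting. As a share of beta chain UMIs it ran from 0.437% over a median of 13.3% to 24.0% in the control cells and from 0.562% over 11.7% to 28.2% in the JPI-289 cells. The standard deviation over cells was 5.54 percentage points for the control, where counting alone would give 1.23, and 5.69 for JPI-289, where counting would give 1.22. The alpha share varied less, with standard deviations of 1.92 and 2.84 beside counting values of 0.872 and 0.95. Cells with more UMIs had a higher Hbb-bt share, with Spearman correlations of 0.411 and 0.422, and so did cells with more Alas2 UMIs, at 0.388 and 0.462, which also rises with depth.

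A low Hbb-bt share, under 5% of beta chains by a limit chosen after the values were seen, was found in 8 of 75 control cells, 10.7% (4.72 to 19.9%), and in 25 of 125 JPI-289 cells, 20% (13.4 to 28.1%). The intervals overlap. These cells were shallower, with a median of 980.5 UMIs for the control and 971 for JPI-289 against 1621 and 1757.5 in the rest. Their median globin share was also lower, at 64.3% and 73.6% against 82.3% and 84.2%. Alas2 was seen in 6 of the 8 and in 15 of the 25.

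**Figure D2:**
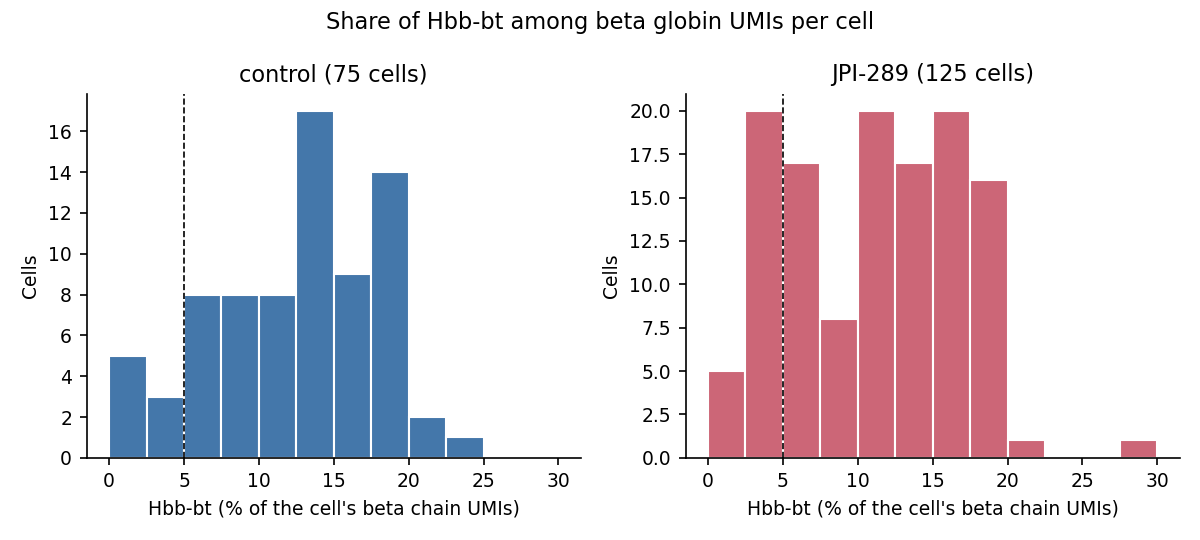
Number of globin-rich cells by the share of Hbb-bt among their beta chain UMIs (percent, bins of 2.5), control left and JPI-289 right; the dashed line is at 5%. The control cells centre on a median of 13.3%, and 25 of the 125 JPI-289 cells lie under the line.

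Other globin genes were close to absent. Hbq1b and Hbq1a, the theta globins of the alpha cluster, had 7 and 3 UMIs in control cells and 5 and 7 in treated cells. The embryonic genes Hbb-bh1, Hbb-y and Hba-x and also Hbb-bh2 had 0 UMIs in both libraries. Of the 8 genes listed, 6 are in the files.

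Alas2, the erythroid enzyme of the first step of haem synthesis and the marker outside the choice, had the highest ratio to other cells of the non-globin genes with at least 50 UMIs. It had 510 UMIs in control cells and 696 in treated cells. It was seen in 61 of 75 control cells, 81.3% (70.7 to 89.4%), and in 103 of 125 JPI-289 cells, 82.4% (74.6 to 88.6%). The cells with neutrophil markers, which should lack it and had a median of 2148.5 and 2196 UMIs, gave 0 of 152 and 0 of 564, which, at 3 counts, allow shares of cells with a UMI of up to 1.97% and 0.532%. Of all other cells, 0.283% and 0.241% had an Alas2 UMI. With each cell thinned to 500 UMIs, the share with Alas2 was 70.7% (59.0 to 80.6%) for the control and 65.6% (56.6 to 73.9%) for JPI-289. The 14 and 22 cells without Alas2 had medians of 878 and 844 UMIs, against 1811 and 1795 in the cells with it.

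Other genes are given per 10000 non-globin UMIs of the globin-rich cells, since globins take most of the depth and chose the cells. On this scale Alas2 stood, over both libraries, 2835-fold above free RNA, meaning barcodes of 100 to under 300 UMIs that hold too little for a cell. Ube2l6, a ubiquitin-conjugating enzyme that also transfers ISG15, stood 934-fold above it. Tent5c, a cytoplasmic poly(A) polymerase, was 551-fold above free RNA and Isg20, an exonuclease induced by interferon, 372-fold. Bpgm, which makes the phosphate that lowers the oxygen affinity of haemoglobin, was at 77.2-fold. Slc25a37 or mitoferrin, which brings iron into mitochondria, was at 31.5-fold, and Fech, the last enzyme of haem synthesis, at 17.6-fold. These genes and Alas2 follow the globins that chose the cells, so the ratios are a description of what the cells contain.

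The red cell genes were seen in part of the cells. Bpgm had a UMI in 38.7% of control and 22.4% of JPI-289 globin-rich cells, and Ube2l6 in 42.7% and 52.0%. In the neutrophil-marker cells Bpgm was found in 1 of 152 and 5 of 564 cells and Ube2l6 in 2 and 7. Several of these genes were also seen outside the globin-rich cells. Isg20 had a UMI in 42.7% and 22.4% of globin-rich cells and in 10.5% and 6.38% of neutrophil-marker cells, and Slc25a37 in 21.3% and 19.2% beside 11.8% and 18.6%. Of all other cells, 7.40% and 5.24% had a UMI of Bpgm and 14.4% and 14.8% one of Fech, which 30.7% and 32.0% of globin-rich cells had.

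Genes of erythroblasts, the nucleated stage, were hardly present. Of 13 erythroid transcription factors and cofactors, none reached 20 UMIs, and Gata1, Klf1, Tal1, Gfi1b, Hemgn, Bcl11a and E2f4 had 0 UMIs in both libraries; the list held 8 and 20 UMIs. The 14 proliferation genes held 5 and 19 UMIs, with Mki67, Top2a, Ccna2, Ccnb1, Ccnb2, Cdk1, Tyms and Birc5 at 0. Messages of the membrane and its skeleton were also few. Slc4a1, the band 3 anion exchanger, had 3 and 7 UMIs. Of the 23 membrane genes 8 had no UMI, among them Ank1 and Epb42, and Epb41, encoding protein 4.1, led with 32 UMIs in each library. Of the markers listed for red cells and reticulocytes, the 4 globins, Alas2, Bpgm, Fech and Tent5c were measured, Slc4a1 was scarce and Hemgn had no UMI.

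The level of these genes rose with the globin share. That share chose the cells, and as it rises fewer non-globin UMIs of a cell remain to divide by. The bands thus favour a rise by themselves, and nothing is read from it. The lowest bands held only 12 control and 32 JPI-289 UMIs of Alas2. In cells of 20 to 50% globin, 5 control and 13 JPI-289 cells, Alas2 stood at 20.3 and 22.0 UMIs per 10000 non-globin UMIs. In the 31 and 39 cells of 50 to 80% it stood at 89.7 and 75.3, and in the 39 and 73 cells above 80% at 311 and 296. The sum of Ube2l6, Tent5c, Isg20 and Bpgm went from 11.8 and 5.50 over 39.3 and 36.1 to 229.9 and 139.8. Proximal tubule markers did not fall steadily, with 162, 322 and 202 UMIs per 10000 in the control bands and 98.3, 173 and 149.7 in the JPI-289 bands.

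**Figure D3:**
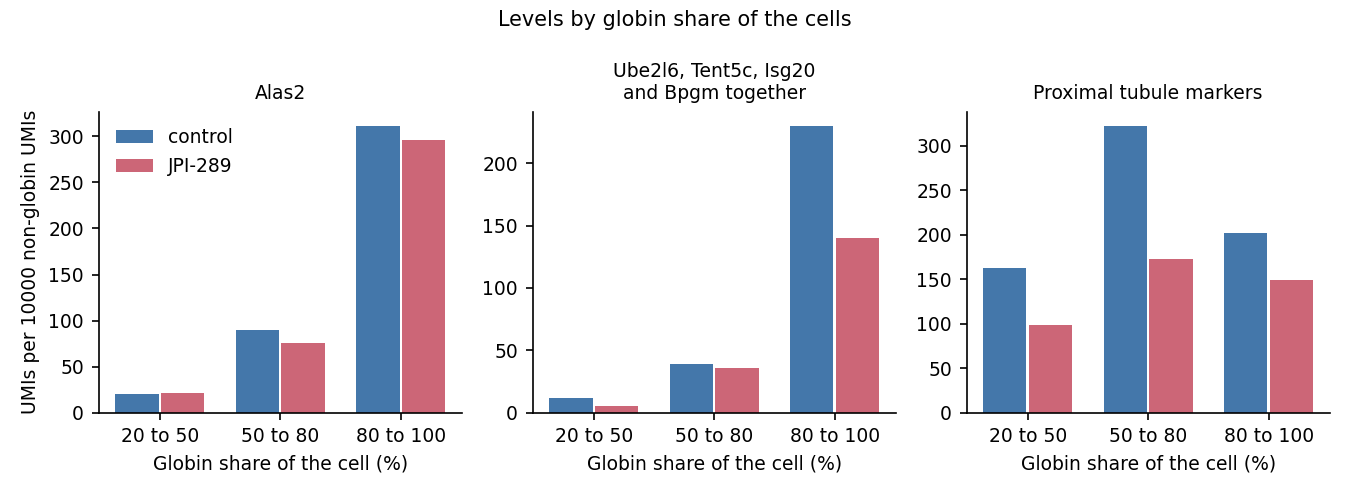
Level (UMIs per 10000 non-globin UMIs) of Alas2, of 4 other red cell genes together and of the proximal tubule markers in globin-rich cells of 3 bands of globin share; bars start at 0 and have no error bars. Alas2 reaches 311 and 296 in the highest band, where the 4 genes together stand at 229.9 and 139.8. The bands are cut on the share that chose the cells.

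Most non-globin UMIs of these cells were at the composition of free RNA. Proximal tubule markers, which a red cell should lack, held 235 per 10000 non-globin UMIs of the control cells and 139.9 of the treated ones, beside 313 and 192 in free RNA. Taken as a measure of free RNA, these levels would put it at 75.2% and 72.7% of the non-globin UMIs. With free RNA taken from barcodes of 10 to under 100 UMIs the values would be 82.4% and 81.2%. The estimate assumes that no tubule cell shared a droplet with a red cell, which was not tested. Of the 681 control UMIs of the list, 72 lay in 1 cell with 595 genes. Fth1, the heavy chain of ferritin, stood at 246 and 338 in globin-rich cells and at 268 and 357 in free RNA. Spp1, which encodes osteopontin and marks injured tubule, stood at 101 and 153 beside 159.9 and 181. Only 41 of the 457 genes with at least 20 UMIs over both libraries stood at least 4-fold above free RNA, and they held 8.22% and 5.67% of the non-globin UMIs.

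Globin-rich cells made up 1.23% (0.972 to 1.54%) of the control barcodes with at least 500 UMIs and at most 50% mitochondrial UMIs, and 1.97% (1.64 to 2.34%) of those of the JPI-289 library. The intervals do not overlap at these limits, and they cover the counting of cells and not the difference between mice or dissociations. The share of globin among the UMIs of globin-rich cells and their median depth were nearly the same in both libraries. Of all globin UMIs of a library, 73.2% with saline and 80.1% with JPI-289 lay in the globin-rich cells.

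Among the 457 measured genes, 63 were at least 2-fold higher in the JPI-289 cells, which is 13.8%, and 47 at least 2-fold lower, which is 10.3%. The median log2 ratio of JPI-289 over control, taken after adding 0.5 to each sum of UMIs, was -0.02. For 317 genes the counting interval of the ratio included 0. Of the 41 genes that stood at least 4-fold above free RNA over both libraries, 9 were 2-fold lower and 8 were 2-fold higher, and the 8 had 0 or 1 UMI in the control cells. A gene could pass that limit through the library where it was higher, so nothing is read from these counts.

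The genes lowest in the JPI-289 cells among those above free RNA included Bpgm and Isg20. Bpgm (chr6:34476207-34505613, plus strand) had 102 UMIs in control cells and 50 in treated cells, 35.2 and 10.8 per 10000 non-globin UMIs, a log2 ratio of -1.70 (-2.23 to -1.21). Isg20 had 73 and 44 UMIs and a log2 ratio of -1.41 (-1.99 to -0.85). Both were lower after JPI-289 both per non-globin UMI and as the share of cells with a UMI. They were also lower outside the globin-rich cells, at far lower levels. In free RNA the log2 ratio was -0.40 for Bpgm and -0.80 for Isg20, and in the other cells -0.53 and -0.59. Whether the decrease is particular to globin-rich cells was not tested. With each cell thinned to 500 UMIs, Bpgm was found in 18.7% (10.6 to 29.3%) of control cells and 9.60% (5.06 to 16.2%) of treated cells, so the intervals overlapped. Isg20 was found in 17.3% (9.57 to 27.8%) and 8% (3.90 to 14.2%) of the thinned cells, and these intervals overlapped too. Mkrn1, a ubiquitin ligase, had 141 and 118 UMIs and a log2 ratio of -0.94 (-1.30 to -0.58). It was higher with JPI-289 in free RNA and in the other cells, at 0.70 and 1.38.

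Other red cell genes had log2 ratios of smaller size than Bpgm and Isg20 between the globin-rich cells of both libraries. Most of their intervals are wide, and that of Fech reached past 2-fold lower. Alas2 stood at 176 and 149.8 per 10000, a log2 ratio of -0.23 (-0.40 to -0.07), and its sign changed when each cell was given equal weight, to 0.014. Ube2l6 (chr2:84798828-84810335, plus strand), with 103 and 143 UMIs, had a log2 ratio of -0.21 (-0.58 to 0.17). Tent5c, with 70 and 85 UMIs, had -0.40 (-0.88 to 0.08). Slc25a37, with 22 and 39, had 0.13 (-0.65 to 0.97), and Fech, with 48 and 56, had -0.46 (-1.04 to 0.13). The intervals of Ube2l6, Tent5c, Slc25a37 and Fech included 0 and those of Bpgm and Isg20 did not, and no difference between the 2 sets of genes was tested.

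Among the 8 genes with the largest decrease, of those with at least 50 UMIs over both libraries, were Pck1 of the tubule, described further on, and the following 6. Ube2b, a ubiquitin-conjugating enzyme, had 73 and 18 UMIs, a log2 ratio of -2.67 (-3.53 to -1.94), with 20 of the 73 in 1 control cell. Car2, carbonic anhydrase 2, had 68 and 20 UMIs and -2.42 (-3.25 to -1.71), and it was also lower in free RNA, at 6.48 and 2.66 per 10000, a log2 ratio of -1.28. Cd24a, a surface antigen of young red cells and of many other cells, had 84 and 27 UMIs and -2.30 (-3.00 to -1.68). Pabpc1, the main poly(A) binding protein, had 107 and 49 UMIs and -1.80 (-2.33 to -1.31). Gpx1, a glutathione peroxidase that removes peroxides, had 249 and 122 UMIs and -1.71 (-2.04 to -1.39). The uncharacterised gene 1810058I24Rik had 45 and 14 UMIs and -2.33 (-3.35 to -1.47).

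These 6 genes, grouped after their values were seen, held 626 UMIs in the control cells, and 6 of the 75 cells held at least 50% of them. The first 3 cells had 107, 93 and 49. The 6 cells had at least 2895 UMIs each and 83.3 to 91.5% globin. In the JPI-289 library the 6 genes held 250 UMIs, 8 of 125 cells held at least 50% of them, and the first had 69. The log2 ratio of their sum was -2.004 (-2.22 to -1.79), and -1.77 (-2.08 to -1.47) without the 6 leading cells of each library. Leaving out the 6 leading cells in the same way, Alas2 was at -0.10 (-0.29 to 0.10), and Ube2l6, Tent5c, Slc25a37 and Bnip3l together, also grouped after their values were seen, at -0.17 (-0.45 to 0.11). Since the 6 genes were taken for their decrease, the direction of their sum was fixed by the choice. Ubiquitous genes such as Gpx1 are not marks of red cells, since thinned neutrophil-marker cells had it in 46.7% and 28.4% of cells beside 32.0% and 13.6% of globin-rich cells.

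**Figure D4:**
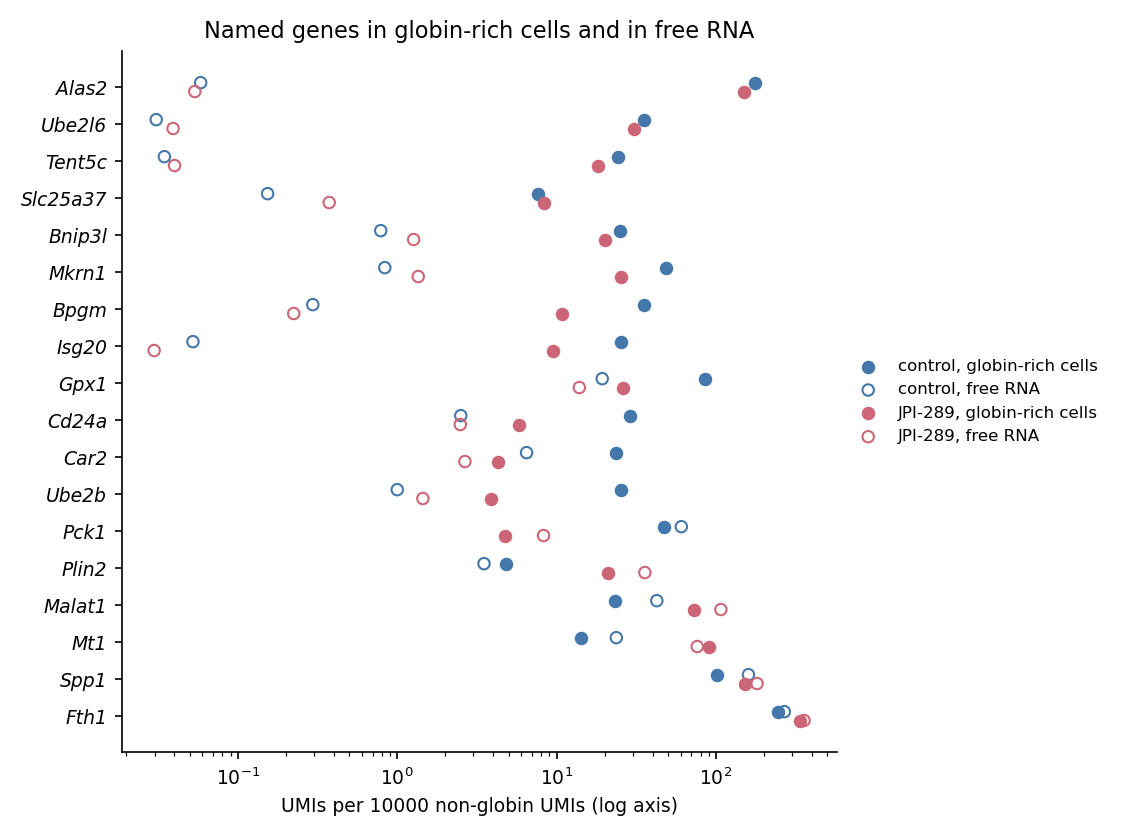
Level (UMIs per 10000 non-globin UMIs, log axis) of 18 genes in globin-rich cells (filled) and free RNA (open), control and JPI-289. Alas2, Ube2l6, Tent5c, Bpgm and Isg20 lie far above free RNA in both libraries, and Bpgm, at 35.2 and 10.8, is lower in the JPI-289 cells, while Pck1, Plin2, Malat1, Mt1, Spp1 and Fth1 lie near their free RNA.

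By the lists of red cell programmes, redox and metabolism was the lowest against the median of -0.02 for all genes among the lists with at least 3 measured genes. With a minimum of 300 UMIs per cell, the list of clearance by ubiquitin and mitophagy was lower. Of the 17 redox genes 11 were measured, with a median log2 ratio of -0.86. An interval on this median from the order of the 11 values ran from -1.71 to 0.18. It included 0 and the median of all genes. Among these, 4 were 2-fold lower and 0 higher, beside 10.3% lower and 13.8% higher over all measured genes. The 4 were Gpx1, Car2, Bpgm and Prdx2, a peroxiredoxin with 50 and 38 UMIs and a ratio of -1.07 (-1.73 to -0.44). Gapdh of the same list, with 115 and 137 UMIs, had -0.43 (-0.80 to -0.06), but -0.019 and -0.006 with at least 50% and 80% globin. It stood at 39.7 and 29.5 per 10000, beside 47.4 and 36.5 in free RNA. The list's summed level was 252 per 10000 in control cells and 123 in treated cells, beside 129.8 and 107.5 in free RNA.

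In the list of clearance by ubiquitin and mitophagy, 12 of 21 genes were measured, with a median of -0.54. The interval from the order of its values ran from -0.89 to -0.21. Such intervals cover the genes of a list and not the mice. Ube2b was 2-fold lower and 1 gene was 2-fold higher, beside the same 10.3% and 13.8% over all measured genes. Ubb, a polyubiquitin gene, had 152 and 162 UMIs and a ratio of -0.59 (-0.92 to -0.26). Bnip3l or Nix, the receptor by which reticulocytes remove mitochondria, had 72 and 93 UMIs and -0.31 (-0.77 to 0.15), its interval including 0. The summed level of the list was 262 and 178 per 10000, against 31.4 and 38.6 in free RNA.

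Of 15 haem synthesis genes 12 had a UMI and 3 were measured, Alas2, Fech and Slc25a37, with a median of -0.23 and none past 2-fold. Of 9 genes of iron uptake and storage 3 were measured, with a median of 0.43 and none past 2-fold. Fth1 had 714 and 1572 UMIs and a ratio of 0.46 (0.33 to 0.59), and Ftl1, the light chain, 170 and 369 and 0.43 (0.17 to 0.71). Ncoa4, which delivers ferritin to autophagy, had 17 and 14 UMIs and -0.95 (-2.09 to 0.15). The summed iron list stood at 315 and 423 per 10000 in globin-rich cells and at 310.1 and 413 in free RNA, close to each other in both libraries.

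The shorter lists held few measured genes. In the membrane list 2 of 23 were measured, with a median of -0.78, and Epb41 had a ratio of -0.68 (-1.44 to 0.07). In the list of apoptosis and kinase regulators 2 of 9 were measured, among them Eif1, a translation factor with 63 and 77 UMIs and -0.39 (-0.89 to 0.11). Of 12 interferon-stimulated genes 2 were measured, Isg20 and Rsad2, the antiviral viperin, with 18 and 26 UMIs and -0.16 (-1.07 to 0.80). Zbp1, Oas1a, Bst2, Ifit3 and Ifit1 of that list had 0 UMIs in both libraries.

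Of the 63 genes higher in the JPI-289 cells, 55 stood less than 4-fold above free RNA. So did 38 of the 47 lower genes and 416 of all 457 measured genes. Of the 63, 7 had no control UMI but were at least 2-fold higher even against a floor of 3 counts in the control cells. Mt1, a metallothionein that binds zinc and copper, had 41 UMIs in control cells and 420 in treated cells, in 24 and 100 cells, a log2 ratio of 2.66 (2.21 to 3.17). It stood at 14.2 and 90.4 per 10000 in globin-rich cells and at 23.7 and 76.3 in free RNA, where the ratio was 1.69. Plin2, which coats lipid droplets, had 14 and 98 UMIs and 2.08 (1.31 to 3.05), with levels of 4.83 and 21.1 beside 3.50 and 35.8 in free RNA. Malat1, a nuclear RNA, had 67 and 338 UMIs at 23.1 and 72.7 per 10000, beside 42.5 and 107.4 in free RNA. Hsp90ab1, a heat shock protein gene, had 22 and 88 UMIs and a ratio of 1.29 (0.63 to 2.06). In the other direction Pck1, of gluconeogenesis in the proximal tubule, had 137 and 22 UMIs and -3.29 (-4.04 to -2.66), at 47.3 and 4.73 beside 60.6 and 8.28 in free RNA. Of the 63 genes higher, 21 were also 2-fold higher in free RNA, and of the 47 lower, 16 were also 2-fold lower there. These counts are given without the share over all measured genes, so nothing is read from them.

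Some of the higher genes, which can be the same as those near free RNA, had most of their UMIs in 1 cell. In 14 of the 63, 1 JPI-289 cell held more than 50% of the JPI-289 UMIs. In 0 of the 47 lower genes did 1 control cell hold more than 50% of the control UMIs. A single cell can bring a gene past 2-fold, and the share over all measured genes is not given. No difference between higher and lower genes is therefore read from these counts. Hspb1 had 4 and 57 UMIs, 49 of them in 1 cell. The heat shock genes Hspa1a and Hspa1b had no control UMI and 39 and 35 JPI-289 UMIs, 37 and 34 of them in 1 cell each. Il1r2 and Rgs1, of leukocytes, had 0 control UMIs and 31 and 27, with 30 and 27 in 1 cell each; these 4 genes were chosen after their values were seen. In the stress list, 7 of 14 genes were measured, 5 were higher and 1 lower, beside 13.8% and 10.3% of all measured genes, and the median was 2.49, also with the genes without a control UMI set at that floor, but -0.45 when only cells of at least 80% globin were kept.

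Markers of other cell types were compared for the same cells. Neutrophil markers held 32 UMIs in control cells and 180 in treated cells, at 11.05 and 38.7 per 10000 beside 18.5 and 29.0 in free RNA. Of the 180, 56 lay in 1 cell with 4508 UMIs, 31.8% globin and 873 genes, Lcn2 led with 26 and 120 UMIs, and Cxcr2, Csf3r and Mmp8 were at 0. Macrophage markers held 3 and 29 UMIs, of which 28 lay in 1 JPI-289 cell with 5172 UMIs, 35.2% globin and 1375 genes. The most abundant of them, C1qb, had 0 and 10 UMIs, and Ccr2, Ly6c2 and Adgre1 were at 0. Lymphocyte markers had 0 UMIs over 7 genes, platelet markers 6 and 1, endothelial markers 6 and 10, collecting duct markers 10 and 11, stroma markers 4 and 5, and those of the loop and distal tubule 11 and 26. The most abundant tubule markers were Gpx3, with 375 and 377 UMIs, Spp1, with 292 and 709, Umod, with 3 and 22, and Aqp2, with 4 and 7. Injured tubule markers held 316 and 765 UMIs, at 109 and 165 per 10000 beside 174 and 199 in free RNA. The JPI-289 cell with 56 neutrophil marker UMIs also held 103 of these 765 UMIs. It held 15 of the 26 JPI-289 UMIs of the loop and distal tubule list as well, so its markers were not those of neutrophils alone. By gene, 1 JPI-289 cell each held 55 of the 120 Lcn2, 102 of the 709 Spp1 and 15 of the 22 Umod UMIs. The part of these other cells in single gene ratios was not tested.

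Outside the globins Gm42418, which overlaps ribosomal RNA, had most UMIs, 2047 and 4378, followed by Fth1. The mitochondrial genes mt-Co3, mt-Cytb, mt-Co2, mt-Co1 and mt-Atp8, Alas2, AY036118, which also overlaps ribosomal RNA and had 281 and 722 UMIs, and Spp1 completed the first 10. Of these mt-Co3 had a log2 ratio of -0.52 (-0.64 to -0.40) and mt-Atp8 of -0.45 (-0.62 to -0.28), while mt-Cytb, mt-Co2 and mt-Co1 lay at -0.05, -0.07 and -0.08, with intervals that included 0.

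**Figure D5:**
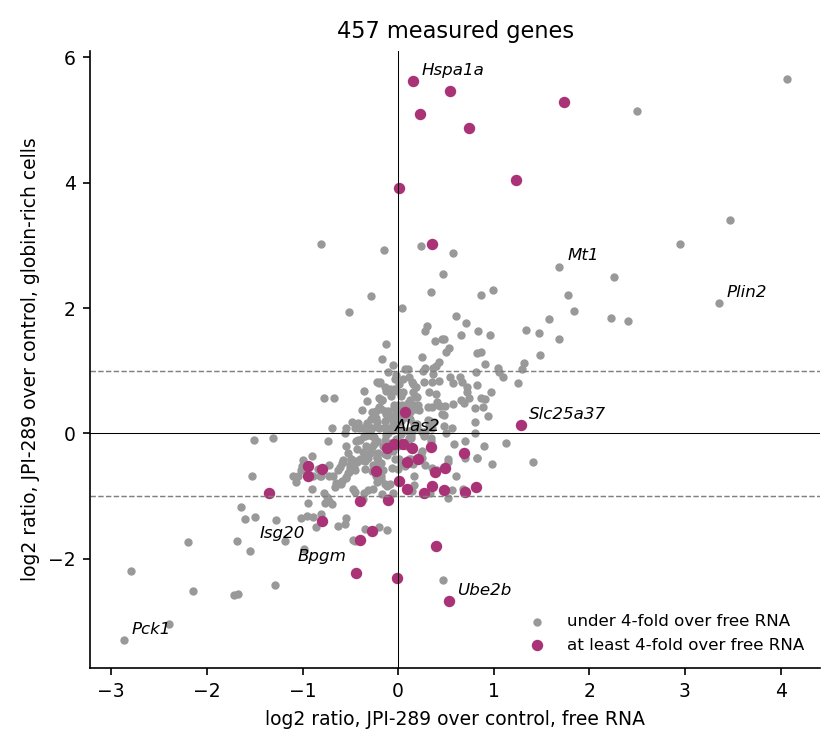
Log2 ratio of JPI-289 over control of the 457 measured genes in globin-rich cells (vertical) against that in free RNA (horizontal); large points are the 41 genes at least 4-fold above free RNA and dashed lines mark 2-fold. Bpgm, Isg20 and Ube2b are among the large points below the lower line, and the 8 large points above the upper line have 0 or 1 control UMI; points at the top with 0 control UMIs take their height from the 0.5 added.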

How the data were processed

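Kidney cell suspensions of 1 saline and 1 JPI-289 treated mouse were run on the Chromium 5′ kit v2. The authors deposited raw UMI counts of every barcode (737280 barcodes, 32285 genes), made with Cell Ranger 5.0.1 on mm10 per the submitters' processing notes, with no cell calling, free RNA removal or doublet filter. No doublet caller was run here, so droplets with a red cell and another cell remain. All count columns belong to the 2 libraries.

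UMIs were summed over globin-rich cells per library and divided by non-globin UMIs. A gene was measured with at least 20 UMIs over both libraries. Log2 ratios were taken after adding 0.5, with exact binomial intervals on both sums. No count model was fitted, because 1 library per condition leaves no replicates. Intervals on shares are Clopper-Pearson. Cells with neutrophil markers had at least 2% of non-globin UMIs in S100a8 and S100a9 and under 20% globin. Free RNA came from barcodes of 100 to under 300 UMIs. Thinning drew 500 UMIs per cell. The steps were tested on simulated data. Python 3.11.15, numpy 2.4.6, scipy 1.17.1, pandas 2.3.3 and matplotlib 3.10.9 were used.

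Some named genes are not reported here. The cells and gene lists were chosen with earlier results of these data known. Genes are named if they are adult globins or Alas2, the 3 with most UMIs of each programme list, the 1 with most UMIs of each list of another cell type, the 10 with most UMIs, the 10 highest over other cells or the 8 most changed in each direction with at least 50 UMIs. Genes named beside these were chosen after their values were seen, among them Bnip3l, Prdx2, Slc4a1, the 4 genes in single cells, and the listed genes at 0. Alternatives changed the limits on UMIs, mitochondrial and globin share, the scaling, weighting, gene minimum, added count, free RNA subtraction and deepest cells.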

Additional observations from a re-analysis of the deposited data

Results flagged for a closer look

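Barcodes under 500 UMIs lay outside the globin-rich cells, apart from the alternative with at least 300 UMIs, and globin-rich ones were found there in both libraries, above the limit of 3 counts. Of barcodes with 300 to under 500 UMIs, 30 control and 43 JPI-289 barcodes had at least 20% globin UMIs. Of barcodes with 100 to under 300 UMIs, 13 control and 30 JPI-289 barcodes did. The shallow barcodes were more numerous in the JPI-289 library in both ranges, as were the globin-rich cells above 500 UMIs.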

How the results depend on the processing

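No paired analysis was possible because each condition has 1 library and the labels give no replicate numbers. The share of globin-rich cells was higher in the JPI-289 library under the limits tried. Against 1.23% for the control and 1.97% for JPI-289, it was 0.657% and 1.24% with at least 300 UMIs and 1.84% and 2.38% with at least 1000 UMIs. It was 0.642% and 1.15% with at least 80% globin, and 1.59% and 2.31% with at most 20% mitochondrial UMIs. Shares under these alternatives are given without intervals, so the lack of overlap is stated for the main limits only.

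The 63 genes at least 2-fold higher became 33 with at least 50% globin, 17 with at least 80% globin, 397 with a gene minimum of 5 UMIs, 11 with a minimum of 50, 31 with free RNA of barcodes of 10 to under 100 UMIs subtracted and 38 without the 10% deepest cells. The 47 genes lower became 28 at both globin limits, 426 and 15 at the gene minimums of 5 and 50, 27 with that free RNA subtracted and 28 with free RNA of 100 to under 300 UMIs subtracted. The number of genes measured changes with these settings, to 325 and 202 at the globin limits, 2044 and 184 at the gene minimums, 119 and 137 after subtraction and 360 without the deepest cells.

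The median of the iron list, 0.43, was 0.58 and 0.47 with at least 50% and 80% globin, 0.48 with at least 1000 UMIs, 0.49 scaled to all UMIs, 0.46 centred on the median over all genes, 0.52 without the 10% deepest cells, 0.51 scaled to globin UMIs and 0.47 without the cell with most UMIs of each gene, while it was 0.25 with a gene minimum of 5 UMIs and changed sign, to -0.30, with free RNA of barcodes of 10 to under 100 UMIs subtracted. That of the redox list, -0.86, was -2.37 and -1.62 with free RNA of 10 to under 100 and 100 to under 300 UMIs subtracted. It was nearer to 0, at -0.48, with at least 300 UMIs and, at -0.67, with equal weight of cells. With at least 300 UMIs the clearance list, at -0.53, was lower than the redox list. Alas2, at -0.23, was at 0.014 with equal weight of cells and at 0.11 without the 10% deepest cells. Gpx3 was at 5.01 and 2.85, and Plin2 at -4.24 and -4.46, with free RNA of 10 to under 100 and 100 to under 300 UMIs subtracted. Umod was at -0.060 with at least 80% globin, and Hspb1 at -0.83 and -1.03 with at least 50% and 80%. The causes were not tested. Of 775 values over 46 named genes and 17 alternatives, 680 stayed within their counting interval, 86 moved and 9 reversed. Bpgm stayed between -1.84 and -1.45, Isg20 between -1.53 and -1.18 and Ube2b between -3.11 and -2.28. Scaling to globin UMIs, free RNA of 100 to under 300 UMIs and leaving out leading cells were chosen after seeing the data. Genes under 3 UMIs after subtraction gave no value. At this depth a gene with 0 UMIs may still be present under 3 counts.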
